A study of Mus musculus with 35 samples.

Results

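The effect of sham surgery on the liver of old mice was read from 9 of the 35 arrays of the series. The operated group holds 6 arrays of livers taken 24, 38 or 48 h after a sham operation, with 2 arrays at each time, and the comparison group holds 3 arrays of livers at 0 h whose treatment is given as none. All 9 livers came from male mice of the CB6F1 hybrid strain aged 25 to 27 months. In the sham operation the liver was handled but not cut, under injected avertin followed by isoflurane; the labels do not say whether the 0 h mice were anaesthetised. RNA was isolated on RNeasy columns and 5 µg was labelled for Affymetrix moe430_2 arrays, which measure the transcripts of a gene with short probes grouped into probe sets. The arrays were chosen by their titles alone, and each of 18193 genes was followed through its brightest probe set with 1 gene symbol. The other arrays of the series (partial hepatectomy at the same times and all groups of young mice, aged 5 to 6 months and bought from Jackson, where the old mice came from the National Institute on Aging) served to estimate the spread and for the comparisons that close the account. The labels do not state that replicates are separate animals, so a p-value measures only the spread between these samples, and with 3 untreated arrays their number limits the precision.

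A sham operation exposes an animal to anaesthesia, laparotomy and wound repair without loss of liver mass, and it serves as the control for hepatectomy. Liver cells answer handling, hormones and cytokines with programmes of different speed. Immediate early genes such as Fos and Egr1 are switched on within minutes and off again within hours, heat shock factor raises chaperone genes when proteins misfold, and interleukin-6 drives the slower secretion of acute phase proteins by hepatocytes. Glucocorticoids, fasting and the circadian clock also set the level of many liver genes, so that the hour of collection and the feeding state matter for such a comparison; the labels give neither.

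Pairwise correlations across genes lay between 0.977 and 0.995 for the 9 arrays, and the 6 sham arrays resembled each other (r from 0.988 to 0.994 between times) more than they resembled the untreated ones (0.977 to 0.990). Hepatocyte genes bore out the label of the tissue: Alb, serum albumin, had a log2 signal of 14.80, 14.89 and 14.91 (lowest, median and highest of the 6 sham arrays) against 14.89, 14.91 and 14.88 in the 3 untreated arrays, and 0 of 11 hepatocyte markers passed the test in either direction. Technical readouts moved within the same arrays too and are given here because they stand beside several results. The array's control probe set for the 3′ end of 18S ribosomal RNA read 8.69 to 9.20 in the sham arrays, against 11.15 to 12.13 in the untreated arrays (log2 difference -2.77 ± 0.46, limma adjusted p = 0.000144 over all 45101 probe sets). The biotin hybridisation control BioDn-3, added to every sample in the same amount in the standard protocol, read 12.60 to 12.71 in 3 sham arrays (24 h replicate 1 and both at 48 h), 11.96 to 12.18 in the other 3 sham arrays (24 h replicate 2 and both at 38 h) and 12.08 to 12.09 in the untreated arrays. The control probe set PheX-3 read 7.48 to 7.68 in the sham arrays, against 7.08 to 7.13 in the untreated arrays. Its log2 difference was 0.46 ± 0.07 (limma adjusted p = 5.07e-05), while PheX-5 and PheX-M, at 0.09 and 0.05, did not pass. The controls for the 5′ end and the middle of beta-actin were higher by 0.55 and 0.49 (adjusted p = 0.0351 and 0.0451). That for its 3′ end, at 0.33, did not pass. No label dates the hybridisations.

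**Figure D1:**
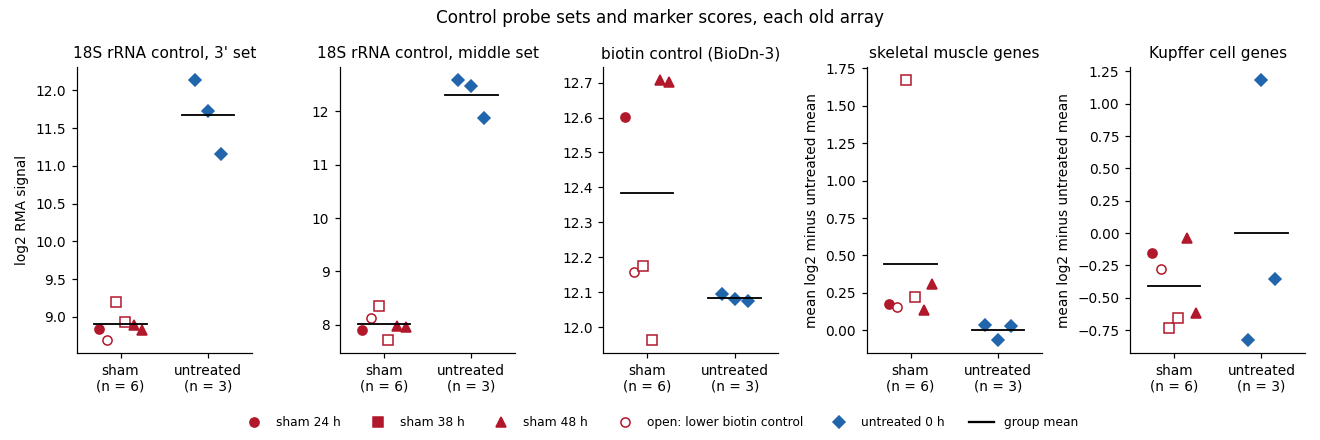
Log2 RMA signal of 18S ribosomal RNA and biotin control probe sets (left 3 panels) and mean log2 level of skeletal muscle and Kupffer cell genes relative to the untreated mean (right 2 panels), 1 point per array, with the 6 sham arrays left and the 3 untreated arrays right of each panel. The sham and untreated arrays do not overlap in the 18S controls, the biotin control divides the sham arrays 3 against 3, and 1 sham array at 38 h stands alone in skeletal muscle genes (1.67 against 0.14 to 0.31 in the other sham arrays).

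Old livers after sham surgery differed from untreated old livers in 5161 of 18193 genes, which is 28.4% of those tested (limma on log2 values, adjusted p under 0.05). A total of 2862 genes (15.7%) were higher and 2299 (12.6%) lower after sham surgery. Which direction had more calls depended on the fit: 2180 genes were higher and 2816 lower when only the 9 arrays were fitted, 3016 and 3312 with the 17 sham and 0 h arrays of both ages, and 733 and 1612 among genes above the median level. The falls were the larger changes: their median was -0.48 on the log2 scale, and 107 genes fell by over 1 (2-fold), whereas the rises had a median of 0.32 and 15 genes rose by over 1. The median difference of all genes was 0.02. Rises came mostly from dim genes and falls from bright ones, with 930 rises and 217 falls in the dimmest of 4 equal bins of mean signal and 181 rises and 791 falls in the brightest. Falls made up 4.77% of genes in the dimmest bin, 19.6% in the third and 17.4% in the brightest. A list of bright genes therefore looks richer in falls against the 12.6% of all genes than against its own bin. In 4971 genes (27.3%) the 6 sham arrays did not overlap the 3 untreated arrays. Genes that both passed the test and did not overlap numbered 1872 higher (10.3% of all genes) and 1882 lower (10.3% of all genes). The 12 largest rises and 12 largest falls named below were taken from these genes only. Their lack of overlap follows from that choice and is no further support. The count of called genes rests in part on single untreated arrays: it was 2928 without untreated replicate 1 and 3196 without untreated replicate 2. With only the 3 sham arrays of lower biotin signal it was 3310, and with only the 3 of higher signal 4575.

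Several heat shock proteins and their helpers were lower. Of 20 measured genes of this list, 9 were lower, where 12.6% of all genes were, and 0 were higher, and the list's median difference was -0.37 against 0.02 over all genes. Hspa1b, an inducible 70 kDa chaperone of the cytosol, had a log2 signal of 8.98, 9.49 and 10.13 (lowest, median and highest) in sham livers, against 11.94, 12.63 and 11.97 in untreated livers. The log2 difference was -2.65 ± 0.65 (6.27-fold lower, limma adjusted p = 0.00397). Both other Hspa1b probe sets fell too, with log2 differences of -2.93 and -2.79. Its near-identical copy Hspa1a differed by -2.27 ± 0.64 (adjusted p = 0.0107), and the probes may not keep the pair apart. Hsph1, which recharges that chaperone with ATP, had log2 signals of 9.52, 10.35 and 10.62 in sham livers, against 11.42, 11.76 and 11.33 in untreated livers (difference -1.24 ± 0.35, adjusted p = 0.0115). The co-chaperone Dnajb1 fell by 0.78, the inducible Hsp90aa1 by 0.63, and the chaperone adaptor Stip1 by 0.50 on the log2 scale. The other called members were Dnajb4 and the mitochondrial pair Hspd1 and Hspe1. The constitutive Hspa8 did not pass, at -0.25 ± 0.12 (adjusted p = 0.114), nor did the endoplasmic reticulum chaperone Hspa5 at -0.28. Cirbp, a cold-inducible RNA binding protein, measured 0.10 ± 0.51 (adjusted p = 0.91). Without untreated replicate 2, in which Hspa1a and Dnajb1 were highest, 4 members of the list passed (5 after a repeated quantile normalization of all arrays), and Hspa1a, Hsph1 and Dnajb1 did not (adjusted p = 0.0873, 0.0653 and 0.195).

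The promoters of 4 genes that fell in this and the next group are shown as examples that hold short elements known to be bound by heat shock factor and other induced factors; they were picked because they hold such a match. Sequences are RefSeq windows of the GRCm38.p6 build, from 250 bases before to 50 bases after the start of the transcript, read 5′ to 3′ on the gene's strand, and matches were sought on both strands. Hspa1b is shown at chr17:34959189-34959488 (minus strand), Hsph1 at chr5:149636287-149636586 (minus strand), Jun at chr4:95052173-95052472 (minus strand) and Dusp1 at chr17:26508423-26508722 (minus strand). Capitals mark the heat shock element GAANNTTC in Hspa1b (first base at -104 from the start), Hsph1 (42) and Jun (-128), the E-box CACGTG in Hsph1 (3) and Dusp1 (-126), and the cAMP response element TGACGTCA in Dusp1 (-143).
Hspa1b: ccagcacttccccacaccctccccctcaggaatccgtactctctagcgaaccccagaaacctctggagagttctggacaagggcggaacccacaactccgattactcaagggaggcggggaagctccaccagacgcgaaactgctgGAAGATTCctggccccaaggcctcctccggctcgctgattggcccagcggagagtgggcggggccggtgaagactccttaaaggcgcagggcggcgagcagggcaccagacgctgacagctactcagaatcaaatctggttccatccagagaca
Hsph1: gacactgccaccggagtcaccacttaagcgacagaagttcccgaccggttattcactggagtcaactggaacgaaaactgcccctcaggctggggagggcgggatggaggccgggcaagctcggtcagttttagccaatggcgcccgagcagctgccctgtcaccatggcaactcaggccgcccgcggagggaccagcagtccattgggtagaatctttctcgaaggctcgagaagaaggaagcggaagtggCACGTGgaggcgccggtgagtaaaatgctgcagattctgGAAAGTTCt
Jun: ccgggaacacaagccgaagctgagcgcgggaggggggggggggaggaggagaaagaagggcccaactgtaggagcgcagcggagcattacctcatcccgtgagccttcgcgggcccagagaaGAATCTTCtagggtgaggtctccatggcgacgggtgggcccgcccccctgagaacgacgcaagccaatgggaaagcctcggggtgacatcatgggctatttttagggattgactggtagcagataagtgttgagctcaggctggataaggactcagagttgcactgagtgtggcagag
Dusp1: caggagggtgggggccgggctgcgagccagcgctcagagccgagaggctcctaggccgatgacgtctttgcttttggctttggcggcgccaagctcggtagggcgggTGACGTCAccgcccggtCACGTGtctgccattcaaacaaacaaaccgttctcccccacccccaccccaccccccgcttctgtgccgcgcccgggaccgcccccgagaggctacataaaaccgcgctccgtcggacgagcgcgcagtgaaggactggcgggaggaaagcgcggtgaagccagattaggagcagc
Of the 16 heat shock list genes with a promoter in the table, 10 held GAANNTTC in at least 1 window, among them Hspa1a, Hspb1 and Bag3, whereas 9.04% of all 27025 genes with a promoter did (7.86% of 32851 windows). The E-box stood in 7.15% of all windows and the cAMP response element, which was searched after the values were seen, in 1.79%. Dnajb1 and Fos, which also fell, held none of these 3 motifs, and of 15 early response genes with a promoter 2 held GAANNTTC. These are matches of letters only.

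Several immediate early genes were also lower after sham surgery. Of 18 measured members 8 were lower (44.4%, against 12.6% of all genes) and 1 higher (5.56%, against 15.7%), with a median of -0.48. Fos, a subunit of the transcription factor AP-1, had log2 signals of 6.98, 7.34 and 7.41 in sham livers, against 9.99, 9.42 and 9.40 in untreated livers. The 6 sham arrays stood close together (difference -2.34 ± 0.43, 5.05-fold lower, adjusted p = 0.000423). Its partner Jun had 8.12, 8.55 and 9.18 in sham livers, against 10.98, 10.34 and 10.84 in untreated livers (difference -2.10 ± 0.36, adjusted p = 0.000184), and a second Jun probe set fell by 0.84. Dusp1, the phosphatase that switches MAP kinases off, had 8.42, 9.26 and 9.44 in sham livers, against 11.74, 11.50 and 11.55 in untreated livers (difference -2.47 ± 0.46, adjusted p = 0.000429). Egr1, a zinc finger activator, fell by 2.63 (adjusted p = 0.00125), but its groups touched: the highest sham array, at 10.18, exceeded untreated replicate 3 at 9.99. The other falls were Junb (-1.16), Zfp36 (-0.91), Ier2 (-0.76) and Dusp6 (-0.59), while Fosl2, another AP-1 subunit, rose by 0.30. Atf3, Fosb and Nr4a1 lay between -0.13 and 0.10 and did not pass.

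A pair of genes that growth factors induce also stood among the 12 largest falls of genes whose arrays did not overlap. Klf10, a transcription factor that TGF-beta induces, had log2 signals of 6.53, 6.76 and 7.46 in sham livers, against 9.44, 9.65 and 9.18 in untreated livers. The gap between the groups, from 7.46 to 9.18, was wider than the range within either (difference -2.55 ± 0.39, 5.86-fold lower, adjusted p = 7.20e-05). Ccn2, a secreted matrix protein also known as connective tissue growth factor, had 7.71, 7.94 and 8.31 in sham livers, against 9.74, 10.69 and 9.50 in untreated livers (difference -1.97 ± 0.39, adjusted p = 0.00077). Of its arrays untreated replicate 2 was the highest.

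**Figure D2:**
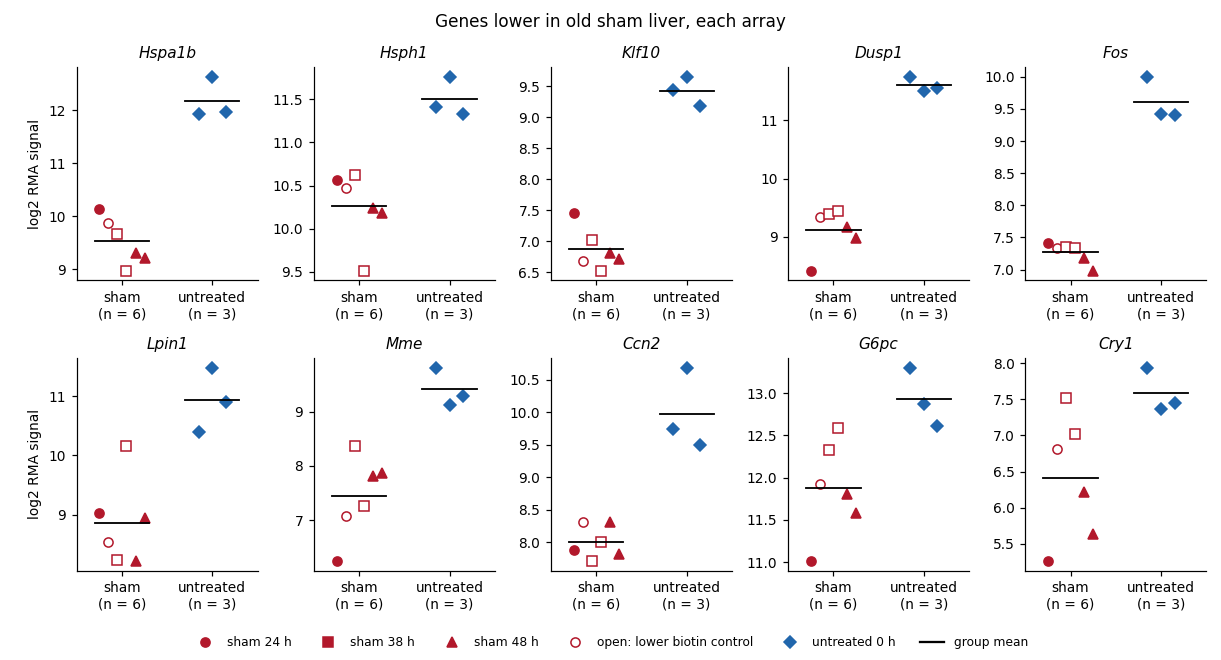
Log2 RMA signal of 10 genes that fell, 1 point per array, the 6 sham arrays left and the 3 untreated arrays right in each panel; the marker gives the sham time, open markers the sham arrays with lower biotin control signal, and lines the group means. Heat shock and early response genes are low in every sham array, whereas G6pc and Cry1 are lower at 24 and 48 h than at 38 h; in Cry1 1 array at 38 h reaches the untreated range.

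Some hormone and nutrient responsive genes of liver metabolism were lower as well. In the list of glucocorticoid targets 7 of 16 were lower (43.8%, against 12.6% of all genes) and 0 higher, with a median of -0.40. Dusp1, already described, is among the 7. Lpin1, a phosphatidate phosphatase that also serves as a transcriptional coactivator, had log2 signals of 8.22, 8.74 and 10.17 in sham livers, against 10.40, 11.48 and 10.90 in untreated livers. Replicate 2 at 38 h, at 10.17, came nearest to the untreated arrays without reaching them (difference -2.07 ± 0.28, adjusted p = 1.91e-05), and the other Lpin1 probe set fell by 1.96. Igfbp1, an insulin-suppressed binding protein of insulin-like growth factors, had 8.41, 9.11 and 12.22 in sham livers, against 12.66, 11.11 and 11.52 in untreated livers. Its difference of -2.13 ± 0.55 (adjusted p = 0.00586) was -2.65 at 24 h, -0.58 at 38 h and -3.17 at 48 h, and 38 h replicate 2, at 12.22, lay within the untreated range. The difference over all times was -1.68 without untreated replicate 1 and no longer passed (adjusted p = 0.0668). It was -2.94 with only the sham arrays of higher biotin signal and -1.32 with only those of lower signal, where it did not pass (adjusted p = 0.215). Further members that fell were the transcription factors Zbtb16 (-0.95), Tsc22d3 (-0.95) and Klf9 (-0.46) and the receptor inhibitor Errfi1 (-0.24), whereas Fkbp5, a chaperone partner of the glucocorticoid receptor, did not pass at -0.63 ± 0.29 (adjusted p = 0.0993) but did without untreated replicate 1 (-1.01, adjusted p = 0.0236). Without untreated replicate 2, or with only the sham arrays of lower biotin signal, 4 members of this list passed, and Tsc22d3 was not among them (adjusted p = 0.107 and 0.0773).

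Among genes of glucose release 3 of 14 were lower (21.4%, against 12.6% of all genes), Igfbp1 included. G6pc, glucose-6-phosphatase, had log2 signals of 11.01, 11.87 and 12.58 in sham livers, against 13.30, 12.87 and 12.61 in untreated livers (difference -1.06 ± 0.29, adjusted p = 0.00822), so that the highest sham array almost reached the lowest untreated one. It did not pass without untreated replicate 1 (adjusted p = 0.0733), and it was -1.46 with only the sham arrays of higher biotin signal and -0.65 with only those of lower signal (adjusted p = 0.178). Gys2, the liver's glycogen synthase, which lost its call without untreated replicate 2 (adjusted p = 0.0966), fell by 0.62, while Pck1, the entry enzyme of gluconeogenesis, measured -0.18 and did not pass. Of 21 genes of fatty acid oxidation and its regulator PPAR alpha 3 were lower (14.3%, against 12.6% of all genes): Angptl4, a secreted inhibitor of lipoprotein lipase (-1.67 ± 0.35), the thioesterase Acot1 (-1.26 ± 0.30) and the peroxisomal enzyme Ehhadh (-0.61 ± 0.21). Angptl4 had 9.53, 10.20 and 10.90 in sham livers, against 12.30, 11.52 and 11.80 in untreated livers (adjusted p = 0.00122). Acot1 did not pass with only the sham arrays of lower biotin signal (-0.73, adjusted p = 0.173). Ehhadh lost its call without untreated replicate 1 (-0.41, adjusted p = 0.243) or 2, or replicate 1 of 24, 38 or 48 h.

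Single enzymes and membrane proteins completed the 12 largest falls among genes whose arrays did not overlap. Egr1 and Igfbp1, whose arrays overlapped, were not ranked, though both fell by more than Mme. Mme, the cell surface peptidase neprilysin, had log2 signals of 6.25, 7.54 and 8.36 in sham livers, against 9.81, 9.12 and 9.29 in untreated livers (difference -1.97 ± 0.30, adjusted p = 5.72e-05). It was lowest in the 24 h arrays, at 6.25 and 7.07, and its second probe set fell by 0.90. Upp2, a liver uridine phosphorylase, differed by -1.86 ± 0.59 (adjusted p = 0.0207), with sham arrays spread from 9.12 to 11.29 against 11.58 to 12.58 in untreated arrays. Its call was lost without untreated replicate 2 (adjusted p = 0.116), 38 h replicate 1 (0.0617), 48 h replicate 1 (0.0559) or 24 h replicate 2 (0.0507). Tent5c, a poly(A) polymerase that stabilises messenger RNA, fell by 1.59 (adjusted p = 0.00171).

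Among genes of ribosome biogenesis and growth control a minority were lower. Of 24 genes that build ribosomes in the nucleolus 8 were lower (33.3%, against 12.6% of all genes) and 0 higher, with a median of -0.24. Nolc1, a nucleolar scaffold, had log2 signals of 8.58, 8.71 and 9.03 in sham livers, against 9.42, 9.53 and 9.40 in untreated livers (difference -0.71 ± 0.14, adjusted p = 0.00069). Rrs1, an assembly factor of the large subunit, differed by -0.69 ± 0.11 (adjusted p = 0.000102), without overlap, and Tsr1 (-0.52) and Pes1 (-0.50) followed. Tsr1 lost its call without any of the 9 arrays except 24 h replicate 2 and 38 h replicate 1, and Pes1 without untreated replicate 1 or 2 or 48 h replicate 1. The count of this list was 4 without untreated replicate 2, 5 without untreated replicate 1 or 48 h sham replicate 1, 4 after a repeated quantile normalization, 4 with only the sham arrays of lower biotin signal and 5 without 38 h replicate 1 and untreated replicate 3 together. Of 19 regulators of the G1 phase 4 were lower (21.1%, against 12.6% of all genes), among them the growth suppressors Rb1 and Rbl2 of the retinoblastoma family. Of the other calls, Tob1 was lost without untreated replicate 1 (limma adjusted p = 0.0611). E2f3 was lost without untreated replicate 1 or 2, 38 h replicate 2 or 48 h replicate 1, and its other probe set measured 0.23. Rb1 had 7.79, 8.01 and 8.16 in sham livers, against 9.07, 8.88 and 8.56 in untreated livers (difference -0.85 ± 0.10, adjusted p = 7.52e-06). Of 16 p53 targets 4 were lower (25%, against 12.6% of all genes), led by the autophagy and apoptosis regulator Trp53inp1 (-1.06 ± 0.25, adjusted p = 0.0029). The other called members, Pmaip1, Zmat3 and Sesn1, did not pass without untreated replicate 2 (adjusted p = 0.293, 0.131 and 0.288). Zmat3 lost its call without any of the 9 arrays except 24 h replicate 2. Sesn1 lost it without any except 38 h replicate 2 and untreated replicate 3. After a repeated quantile normalization Sesn1 measured -0.11 (limma adjusted p = 0.422). Cdkn1a, the cell cycle inhibitor p21, did not pass at -0.32 ± 0.35 (adjusted p = 0.538) although its sham arrays all lay below the untreated ones. With the same difference it passed when limma was fitted to only the 9 old sham and untreated arrays (adjusted p = 0.0306). It also passed in the fit to the 17 sham and 0 h arrays of both ages (adjusted p = 0.0434).

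Hypoxia targets had 3 falls (18.8%, against 12.6% of all genes) and 1 rise (6.25%, against 15.7%) among 16 members. P4ha1, a collagen prolyl hydroxylase, fell by 0.99 (adjusted p = 0.00499), and Vegfa, the endothelial growth factor, measured -0.08. The other falls, Kdm3a and Ero1a, lost their calls without untreated replicate 2 (adjusted p = 0.112 and 0.0589). Kdm3a also lost it without untreated replicate 1 (adjusted p = 0.184), 24 h replicate 1, 38 h replicate 2 or 48 h replicate 2. The rise, Ldha, was lost without untreated replicate 2 (adjusted p = 0.137) or replicate 1 of 24, 38 or 48 h. In the mitochondrial respiratory chain 6 of 25 members were lower (24%). The share was 12.6% of all genes and 17.4% of the brightest of 4 bins, which holds the called Cycs, Sdhd and Cox5a. No called member fell by more than 0.31 (Cycs, cytochrome c, which lost its call without 24 h replicate 1 or untreated replicate 2 or 3). The count of this list ranged from 0 without untreated replicate 2 to 7 without 24 h sham replicate 2 or 48 h sham replicate 2. It was 2 without 24 h replicate 1 or 38 h replicate 1, and 3 without 48 h replicate 1 or untreated replicate 1. It was 1 after a repeated quantile normalization, 2 without 38 h replicate 1 and untreated replicate 3 together, 11 without the 38 h arrays, 12 with only the sham arrays of higher biotin signal and 0 with only those of lower signal. Cytosolic ribosomal protein genes had 2 falls among 20 members (10%), and the list's median was 0.03. A family that was picked after its values were seen holds the genes whose symbol is Zfp (zinc finger protein) and a number. It had 91 falls (29.8%, against 12.6% of all genes) and 33 rises (10.8%, against 15.7%) among 305 members, with a median of -0.09. Zfp979, Zfp229 and Zfp748 fell most, with log2 differences of -1.43, -1.32 and -1.28. Without untreated replicate 1 the family had 59 falls.

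**Figure D3:**
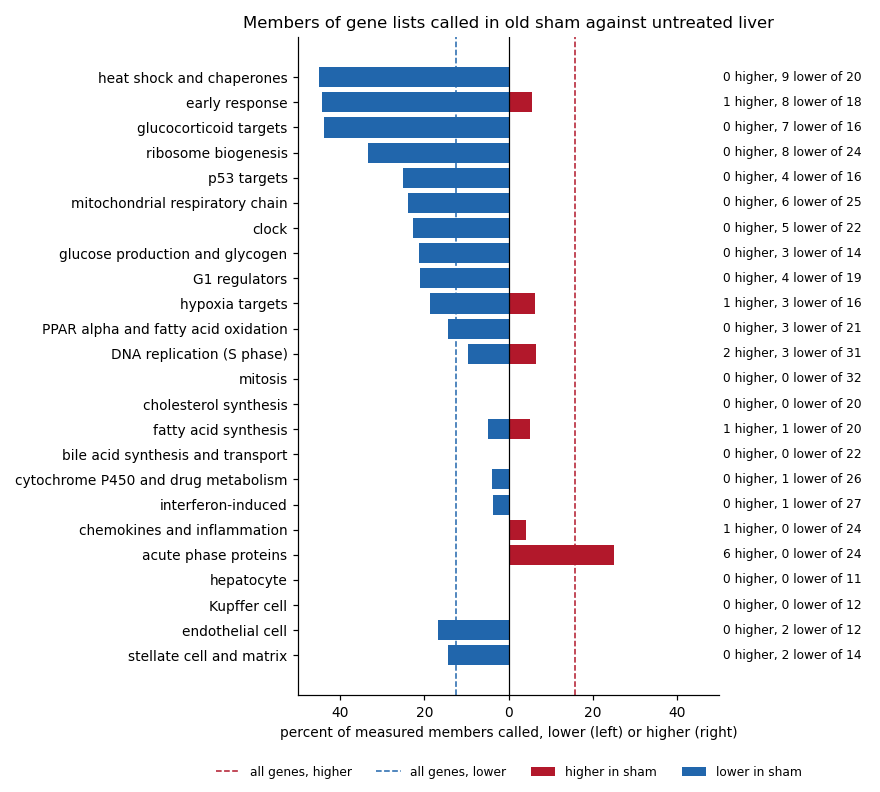
Percent of the measured members of 24 gene lists that were called higher (right) or lower (left) in old sham against untreated liver, with the percentages over all genes as dashed lines (15.7 higher, 12.6 lower). Heat shock genes reach 45, early response 44.4 and glucocorticoid target genes 43.8 percent lower, acute phase proteins 25 percent higher, and mitosis, cholesterol and bile acid synthesis have no called member.

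Among called genes whose arrays did not overlap, the 12 largest rises were genes of unrelated function, and their probe sets often disagreed. Called genes with overlapping arrays, among them Saa2 (1.57), Slc1a4 (1.12) and Saa1 (1.11), were not ranked. Bmf, a pro-apoptotic BH3-only protein, had log2 signals of 7.07, 7.81 and 8.55 in sham livers, against 6.05, 5.86 and 5.69 in untreated livers. The groups were far apart (difference 1.94 ± 0.19, 3.84-fold, adjusted p = 4.56e-07), but of 2 other Bmf probe sets 1 was called at only 0.29 and the other measured -0.38 and was not called. The zinc finger genes Zfp3 and Zfy2, the second on the Y chromosome, rose by 1.65 and 1.34 (adjusted p = 1.84e-05 and 0.000241). Zfp3 had 6.74, 7.38 and 8.19 in sham livers, against 5.90, 6.14 and 5.34 in untreated livers, yet its other probe set measured 0.08. Malat1, a nuclear noncoding RNA, had 10.01, 10.48 and 11.14 in sham livers, against 8.79, 9.02 and 8.77 in untreated livers (difference 1.66 ± 0.35, adjusted p = 0.00127). Its 6 other probe sets lay between -0.39 and 1.22 with no call, and their mean with the first gave 0.35 (adjusted p = 0.29). Stmn3, which destabilises microtubules, rose in both of its probe sets, by 1.05 and 0.38. The splicing factor Srrm2 (1.06), the secreted Bpifb1 (1.33), the mitotic phosphatase Cdc25c (1.28), the myosin chaperone Unc45a (1.10), the islet hormone Iapp (1.06) and the actin binding Tmsb15a (1.03) made up the remainder with Slpi.

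Within the sham livers these rises divided with the biotin control. In 9 of the 12 largest rises the 3 arrays with lower biotin signal all lay above the 3 with higher signal, and in Malat1 and Srrm2 they all lay below, so that 11 of 12 separated the sham arrays in this way, against 1 of the 12 largest falls (Dusp1) and 23% of all genes. Bmf, for example, had 8.55, 8.20 and 8.22 in the arrays with lower signal and 7.38, 7.07 and 7.42 in those with higher signal, with all 6 above the untreated livers. In Srrm2 the rise no longer passed with only the lower-signal arrays (0.73, adjusted p = 0.11), nor without untreated replicate 1 (0.85, adjusted p = 0.0665). Of the 100 largest rises 20 came from probe sets of the _x_at type, whose probes may match several genes, against 4 of the 100 largest falls. Where a gene had further probe sets, at least 1 of them was called in the same direction for 402 of 1138 rises (35.3%) and 837 of 1630 falls (51.3%), and in the opposite direction for 76 rises (6.68%) and 242 falls (14.8%). Of all 34945 probe sets 14.6% were called higher and 14.4% lower. The part of the biotin, 18S and PheX-3 controls in these differences was not tested. Of 26 proteasome subunits 1 rose (3.85%, against 15.7% of all genes). This was Psmb3 (0.88 ± 0.14), whose second probe set measured 0.02.

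**Figure D4:**
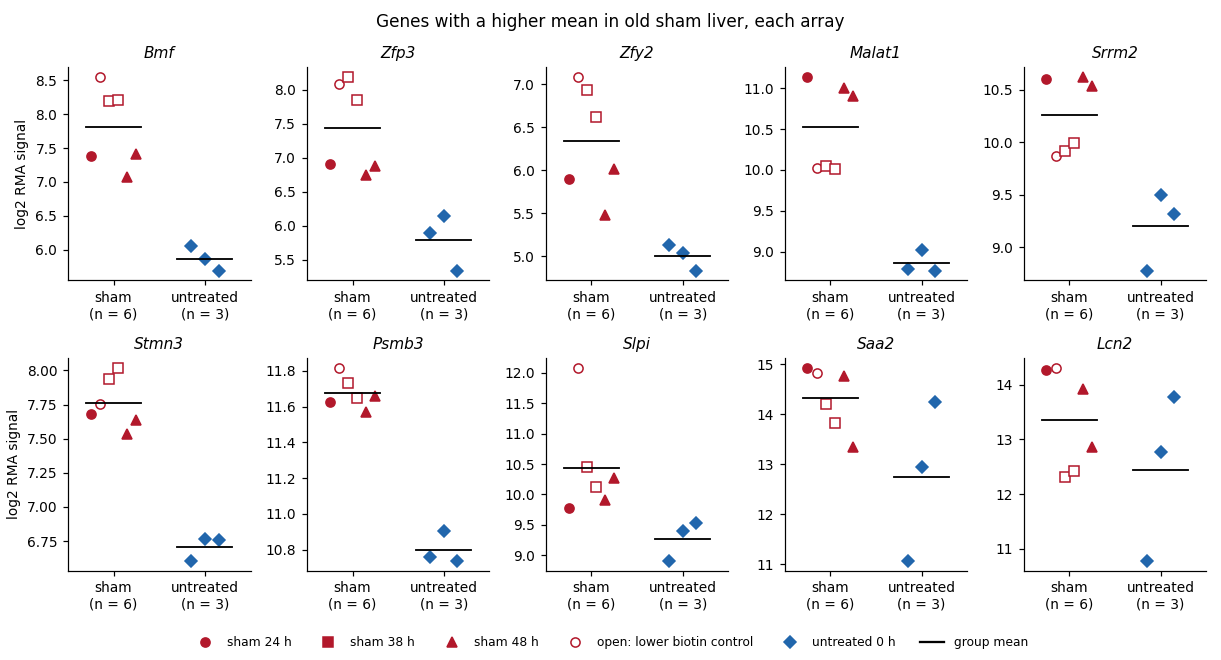
Log2 RMA signal of 10 genes with a higher mean after sham surgery, 1 point per array, the 6 sham arrays left and the 3 untreated arrays right in each panel; open markers are the sham arrays with lower biotin control signal and lines the group means. Bmf, Zfp3 and Zfy2 are higher in the open than in the filled markers and Malat1 and Srrm2 lower, whereas in Saa2 and Lcn2 an untreated array reaches the sham range.

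Acute phase proteins, which the liver secretes after injury, were higher in part. Of 24 measured members 6 rose, where 15.7% of all genes did, and 0 fell, with a median of 0.21, and at 24 h, where 5.02% of all genes rose, 7 did. Saa2, serum amyloid A, had log2 signals of 13.35, 14.49 and 14.93 in sham livers, against 11.07, 12.95 and 14.25 in untreated livers. Its difference of 1.57 ± 0.44 (adjusted p = 0.00978) passed although untreated replicate 3 was as high as the sham arrays. It was largest at 24 h, at 2.13 ± 0.56 (adjusted p = 0.0187). When limma was fitted to only the 9 old sham and untreated arrays, Saa2 and Saa1 did not pass (adjusted p = 0.0697 and 0.0611). Saa1 rose by 1.11, the pentraxin Apcs by 0.49 and orosomucoid Orm1 by 0.37, none of which passed without untreated replicate 1 (adjusted p = 0.209, 0.246 and 0.0611), Apcs also not without untreated replicate 2 or 48 h replicate 1, and Itih3 and Lrg1 were the remaining calls. Lcn2, the iron-scavenging lipocalin, passed at 24 h (1.85 ± 0.52, adjusted p = 0.0241) but not over all times (0.91 ± 0.40, adjusted p = 0.0891), with untreated arrays of 10.78, 12.78 and 13.77; without untreated replicate 3 it was 1.58 over all times and passed (adjusted p = 0.00389). Without untreated replicate 1, the lowest in Saa2, the difference of Saa2 was 0.72 and did not pass (adjusted p = 0.203). The count of the list was 1 without untreated replicate 1, 3 without untreated replicate 2, 10 without the 38 h arrays, 3 with only the sham arrays of lower biotin signal and 11 without untreated replicate 3. Slpi, a secreted inhibitor of leukocyte proteases, was called over all times (1.16 ± 0.44, adjusted p = 0.0487), but in 24 h replicate 2 it stood at 12.09, against 9.78 to 10.45 in the other sham arrays and 8.91, 9.39 and 9.53 in untreated livers. Without that array it measured 0.77 and did not pass (adjusted p = 0.153), and it was lost without any other of the 9 arrays too, except 24 h replicate 1.

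The difference from untreated liver was also tested at each sham time. The 3 comparisons share the untreated arrays. Called genes numbered 1885 (10.4%; 5.34% lower) at 24 h, 2923 (16.1%; 7.26% lower) at 38 h and 4003 (22%; 8.72% lower) at 48 h, and 1122 were called at each time. These counts did not keep their balance of rises and falls under other scalings: 48.4% of the calls at 24 h were rises, and 60.4% after centring each array on its median or 60.9% after a repeated quantile normalization, and at 38 h centring moved the share to 66.5%, against 54.8%. They also depended on single arrays, with 451 at 24 h without replicate 2 and 831 without replicate 1, 750 at 38 h without replicate 2 and 1725 without replicate 1, and 1301 at 48 h without replicate 2 and 1932 without replicate 1. Without untreated replicate 1 they were 728, 1798 and 2365, and without untreated replicate 2 they were 1020 at 24 h and 2585 at 48 h. The 38 h arrays all have lower and the 48 h arrays all higher biotin signal, so time and that signal cannot be told apart there.

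Clock genes are given by time because their levels cycle with the hour of day. In the list 5 of 22 members were lower (22.7%, against 12.6% of all genes) and 0 higher over all times. These were Cry1, a repressor of the core loop, the activator Clock (-0.76), the repressor Bhlhe40 (-0.89), the glucocorticoid-induced Tsc22d3 (-0.95), and the receptor Rora (-0.43). Cry1 had log2 signals of 5.26 and 6.82 at 24 h, 7.52 and 7.02 at 38 h and 6.21 and 5.63 at 48 h, against 7.94, 7.37 and 7.45 in untreated livers (difference over all times -1.18 ± 0.28, adjusted p = 0.00342). With only the sham arrays of higher biotin signal Cry1 differed by -1.89, and with only those of lower signal by -0.47, which did not pass (adjusted p = 0.254). Only 1 of 4 Clock probe sets was called, and it did not pass without untreated replicate 1 (adjusted p = 0.051). Bhlhe40 lost its call without any of the 9 arrays except 24 h replicate 1 and 48 h replicate 2, with adjusted p up to 0.194. The list had 1 member lower with only the sham arrays of lower biotin signal, 2 after a repeated quantile normalization and 3 without 38 h replicate 1 and untreated replicate 3 together. Dbp, a clock output activator, had 6.55 and 7.29 at 38 h and 9.06 to 11.61 at 24 and 48 h, against 8.09, 11.20 and 9.78 in untreated livers; it fell at 38 h (-2.77 ± 0.78, adjusted p = 0.0169) but not over all times (adjusted p = 0.681). The test of 38 h against 24 and 48 h together called 1 gene of 18193 (0.0055%, with 1451 at an unadjusted p under 0.05), Ppp1r1b, a phosphatase inhibitor known as DARPP-32. It had 8.70 and 8.80 at 38 h, against 7.69 to 8.38 at the other times (difference 0.75 ± 0.12, adjusted p = 0.0365), and Dbp did not pass there (-3.59 ± 0.74, adjusted p = 0.151). This count was 18 without 38 h replicate 1, 15 without 38 h replicate 2, 12 without 24 h replicate 2 and 0 without untreated replicate 1 or 3.

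Few markers of other cell types passed the test. The list of Kupffer cell genes, the resident macrophages, had 0 of 12 members called and a median of -0.42, and its score (mean log2 level relative to the untreated mean) lay between -0.73 and -0.04 in sham livers, against -0.83, 1.18 and -0.35 in untreated livers, so that untreated replicate 2 alone was high. In the same array the interferon-induced genes stood at 0.76, and in sham livers they stood at 0.55 and 0.21 at 24 h and between -0.68 and -0.52 later. Of 27 such genes 1 was lower (3.7%, against 12.6% of all genes). Endothelial genes had 2 falls among 12 (16.7%, against 12.6% of all genes), Oit3 (-0.57 ± 0.18) and Pecam1 (-0.55 ± 0.18). Stellate cell genes had 2 among 14 (14.3%), the retinol esterifying Lrat (-0.82 ± 0.20) and Reln (-0.55 ± 0.19). The second probe sets of Lrat and Reln measured -0.10 and 0.10 and were not called. Oit3, Pecam1 and Reln lost their calls without untreated replicate 1 (adjusted p = 0.129, 0.114 and 0.155) or 2 (0.104, 0.117 and 0.0892), Reln also without 24 h replicate 1 and Pecam1 also without 24 h replicate 2 or 38 h replicate 1. In bulk tissue fewer cells of a type and less RNA per cell cannot be told apart. The bile duct marker Epcam rose by 0.53 and its second probe set measured 0.24, while keratins Krt7 and Krt19 did not pass. Of 10 B and plasma cell genes 1 rose (10%, against 15.7% of all genes). The list's scores were 1.03 in 24 h replicate 2 and 0.76 in 48 h replicate 2. They were at most 0.03 in the other sham arrays and -0.13, 0.10 and 0.03 in untreated livers. Adipose genes stood at 1.01 in 24 h replicate 2. Skeletal muscle genes, a list added after the values were seen, had 4 rises among 14 (28.6%, against 15.7% of all genes). At 38 h, where 8.81% of all genes rose, 11 did. Tnnc2, a muscle troponin, read 10.33 in 38 h replicate 1, against 6.21 to 6.61 in the other sham arrays and 6.08, 5.96 and 6.01 in untreated livers. The part of these cells in other differences was not tested.

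Much of the liver's specialised function was not called. None of 20 cholesterol synthesis, 22 bile acid and 32 mitosis genes passed in limma. Of 26 genes of drug metabolism 1 fell (3.85%, against 12.6% of all genes). This was Cyp2a12 (-0.28 ± 0.09), which lost its call without untreated replicate 1 or 2 or 24 h replicate 1. Cyp7a1, the first enzyme of bile acid synthesis, ranged from 8.59 to 12.37 in sham livers, against 9.85 to 11.63 in untreated livers (adjusted p = 0.686). Among 31 S phase genes 3 fell (9.68%, against 12.6% of all genes), Rfc4 (-0.73 ± 0.23), Dut and Mcm2. A further 2 rose (6.45%, against 15.7%), led by the cyclin Ccne1 (0.73 ± 0.17). The 3 falls were lost without untreated replicate 1 or 2, and each without further arrays (Rfc4 38 h replicate 1, Dut 24 h replicate 2, 38 h replicate 2 or untreated replicate 3, Mcm2 every other array but 24 h replicate 2 and 48 h replicate 1). The proliferation marker Mki67 measured -0.70 ± 0.51 (adjusted p = 0.323) and was high in untreated replicate 2 alone, at 8.16. Of 24 chemokine and inflammation genes 1 rose (4.17%, against 15.7% of all genes), Tnf (0.38 ± 0.07). Its sham arrays read 8.10, 8.21 and 8.27, against 7.75, 7.86 and 7.83 in untreated livers.

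Young livers gave a comparison on arrays that the old one does not share, although both came from 1 fit with a common estimate of the spread. In 5 young sham arrays against 3 young untreated arrays 6121 genes (33.6%) were called, 3007 (16.5%) higher and 3114 (17.1%) lower. Of the 2299 genes lower in old sham livers 1927 were lower in young sham livers as well, which is 83.8% of the old and 61.9% of the young list, and of the 2862 higher genes 1762 were (61.6% of the old and 58.6% of the young list). Across the 18193 genes the old and young differences correlated at r = 0.844, with all arrays of 1 platform and 1 type of normalization. In young livers Klf10 differed by -2.20, Dusp1 by -2.71 and Hspa1b by -2.53. Among the young untreated arrays the 3′ 18S control read 9.20, 10.54 and 12.37. Klf10 had 9.29, 9.07 and 9.15 in these arrays, Hspa1b 12.44, 12.92 and 12.84, and Hspa1a 6.18, 7.54 and 7.63. PheX-3 was higher by 0.39 in young sham livers. BioDn-3 read 12.04 in the young sham array at 38 h and 12.74 to 12.83 in the others. Bmf read 8.31 there and 7.32 to 7.62 in the others, and Malat1 9.24 and 11.03 to 11.41. The part of the 18S, PheX-3 and biotin controls in the young differences was not tested. Fos had 7.87, 9.86 and 7.88 in the young untreated livers, so that 1 of them was high, and measured -1.28 ± 0.46 there (adjusted p = 0.033). The difference between the responses of the ages, tested in the same fit, called 2 genes (0.011%, with 1109 at an unadjusted p under 0.05), and age cannot be told apart from supplier. Cdh19, a cadherin, had log2 signals of 5.73, 5.84 and 6.02 in old sham livers, against 7.47, 6.76 and 6.96 in old untreated livers (-1.22 ± 0.14), while young livers measured -0.04 ± 0.14 (difference of responses -1.18 ± 0.20, adjusted p = 0.0334). Map3k5, a stress kinase upstream of JNK and p38, fell by 0.58 in old and by 1.47 in young livers (difference of responses 0.89 ± 0.14, adjusted p = 0.0334). This count was 0 to 12 when single old arrays were left out: 12 without untreated replicate 1, 6 without 38 h replicate 2 or 48 h replicate 1, 4 without 38 h replicate 1, 1 without 24 h replicate 2 or untreated replicate 2, and 0 without 24 h replicate 1, 48 h replicate 2 or untreated replicate 3. Saa2 and Lcn2 measured 4.20 and 4.10 in young livers, against 1.57 and 0.91 in old livers, and these differences did not pass (adjusted p = 0.363 and 0.052). Lpin1 measured -3.92 in young livers and did not pass either (difference of responses 1.85 ± 0.41, adjusted p = 0.247).

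**Figure D5:**
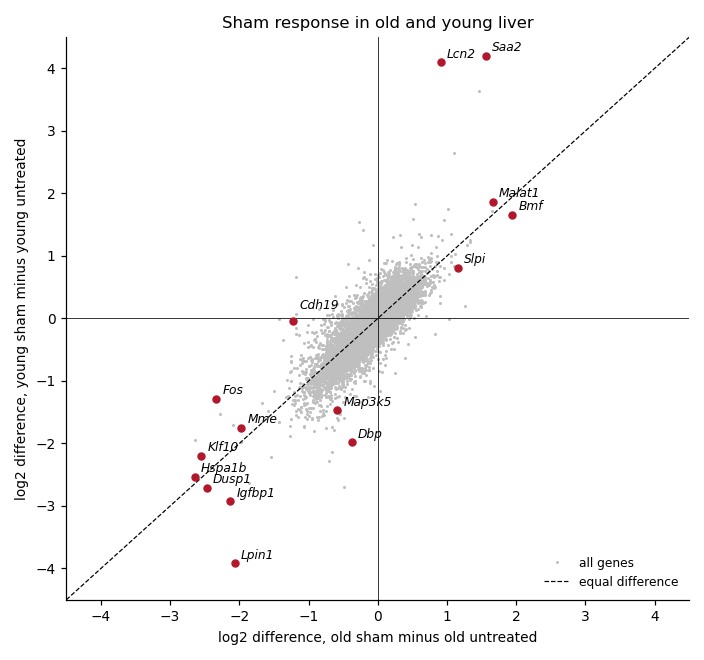
Log2 difference between sham and untreated liver in old mice (x axis) and in young mice (y axis), 1 point per gene for 18193 genes, with the dashed line where both are equal. Klf10, Dusp1 and Hspa1b lie near the line at the lower left, Saa2 and Lcn2 above it, Lpin1 below it, and Cdh19 close to 0 on the y axis (-0.04).

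Old livers after partial hepatectomy, the removal of part of the liver, were set against the same 6 sham arrays to place these genes; this comparison shares the sham arrays with the one above. It called 5427 genes (29.8%), 2985 higher (16.4%) and 2442 lower (13.4%). Of the early response list 15 of 18 members were higher after hepatectomy than after sham surgery, with a median of 0.93. Fos was higher by 2.42 ± 0.32 (adjusted p = 7.95e-06), Egr1 by 3.53 ± 0.41 and Klf10 by 1.34 ± 0.29. Igfbp1 was higher by 3.41 ± 0.41 and Angptl4 by 1.99 ± 0.26. Of the heat shock genes 3 of 20 were higher, with a median of 0.11 and Hspa1b at 0.20 ± 0.48 (adjusted p = 0.785). Ribosome biogenesis genes were higher in 16 of 24 (median 0.41), and the mitosis list, with no call between sham and untreated livers, was higher in 29 of 32 (median 1.45). Bmf was lower after hepatectomy than after sham surgery, at -0.46 ± 0.14 (adjusted p = 0.0142).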

How the data were processed

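Liver RNA of 35 samples in 14 groups was measured on 1 array each. The deposited values are on the log2 scale and were made by the authors with RMA (version not given), per the submitters' processing notes; RMA corrects background, equalises the arrays' distributions and summarises probes. Arrays have no read depth. The platform table gave 1 gene symbol to 34945 of 45101 probe sets, and 932 have several. Each gene was represented by its brightest probe set (mean of the 35 arrays), so a gene with disagreeing probe sets rests on 1 of them. A model with 1 mean per group was fitted by limma 3.58.1, R 4.3.3, on 35 arrays (lmFit and eBayes, 21 residual and 3.29 prior degrees of freedom), which pools the spread per gene over the groups, and p-values were adjusted by Benjamini-Hochberg over 18193 genes in each contrast, with a threshold of 0.05. The sham contrast averages 24, 38 and 48 h equally. "Rose" and "fell" mark adjusted p under 0.05, and errors are standard errors of the fit. The fit was tested on simulated data.

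Named genes are the 12 largest rises and falls whose arrays do not overlap, the 4 largest per direction in the other contrasts, up to 4 members of each of 45 lists and a panel; further list members are given as list calls. 1 gene of the panel is not reported here. The members, lists and rules were chosen with earlier results of these data known. Replicate numbers did not pair the arrays: deviations of same-numbered arrays correlated at -0.17 to 0.15 in 12 pairs, over 0.1 in 5. Alternatives changed the arrays in the fit, probe sets, filter, scaling, variance prior, weights, replicate block and single arrays; leaving out a pair of arrays that stand apart and splitting by the biotin control were chosen after seeing the data.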

Additional observations from a re-analysis of the deposited data

Results flagged for a closer look

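A total of 88 sets of 6 sham arrays (41 genes and 47 list scores) were examined for an array that stands apart by Dixon's test, and 4 did (1 gene and 3 scores); chance alone marks about 1 in 20. Slpi was 12.09 in 24 h replicate 2, against 9.78 to 10.45 in the other sham arrays. The skeletal muscle score was 1.67 in 38 h replicate 1, against 0.14 to 0.31. The score of PPAR alpha and fatty acid oxidation was 0.15 in 38 h replicate 1, against -0.37 to -0.29, and that of fatty acid synthesis was 0.37 in 38 h replicate 2, against -0.73 to -0.36. Scores are mean log2 levels relative to the untreated arrays.

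The tests of a difference between groups marked 3 genes in limma. Cdh19 (-1.18, adjusted p = 0.0334) and Map3k5 (0.89, adjusted p = 0.0334) differed between the old and young sham responses, and Ppp1r1b was higher at 38 h than at 24 and 48 h by 0.75 (adjusted p = 0.0365).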

How the results depend on the processing

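None of the 101 named genes called over all times changed sign in the alternatives run; uncalled ones did, such as Dbp (-0.38, but 0.90 with the higher biotin arrays) and Cirbp (0.10, but -0.13). Of the 101, 50 lost their call when some single array was left out (37 without untreated replicate 2 and 35 without untreated replicate 1), 34 with the lower and 19 with the higher biotin arrays alone, 23 after repeated quantile normalization, 21 with 9 arrays as 2 groups and 20 without the arrays that stand apart. Leaving out single arrays gave 2928 to 5303 genes over all times, 451 to 2339 at 24 h, 750 to 3372 at 38 h, 1301 to 4564 at 48 h, 0 to 18 for 38 h against the other times and 0 to 12 for the age difference. With every probe set tested, the numbers were 10149, 3855, 6510 and 7168, with 3 for 38 h against the other times and 0 for age. Among genes above the median level they were 2345, 874, 1198 and 1812, with 0 and 4. The fit to the 17 sham and 0 h arrays gave 2867 at 24 h and 0 for age, and the fit to 9 arrays gave 0 for 38 h against the other times. Array weights gave 13 for 38 h against the other times and 10 for age, and age gave 4 after centring, 6 with the mean of a gene's probe sets and 5 after repeated quantile normalization. The lower biotin arrays alone gave 3310, and leaving out both arrays that stand apart gave 18 for 38 h against the other times and 1 for age. Where limma called 0 genes under an alternative, the reported contrasts had 1451 (38 h) and 1109 (age) at an unadjusted p under 0.05. The numbers did not pair the arrays; with the replicate block 5327 genes were called over all times and 1 for age. Dim probe sets and 3 untreated arrays limit the smaller differences; the cause of the changes was not tested.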
